A study of Mus musculus with 15 samples.

Results

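The comparison set luminal progenitors (LP) of the virgin mouse mammary gland against its mature luminal cells (ML) on 6 of the 15 Affymetrix expression arrays of the series, 3 for each population, picked by their titles and by no measured value. Both populations came from wild-type adult virgin C57BL/6 females. Their glands were digested, and LP and ML were sorted by flow cytometry from each of 3 cell suspensions as lineage-negative cells with high CD24 and with CD29. The study gives this luminal gate as CD24 positive and CD29 low. LP carried CD61 at the surface and ML did not, so the populations are gates and not clones. Lineage antibodies were directed at CD31, CD45 and TER119, which mark endothelial cells, leukocytes and erythroid cells, and purities after sorting were not used here. The other 9 arrays entered the shared estimate of spread and are quoted for their levels only. They held a basal population rich in mammary stem cells (MaSC, CD24 positive, CD29 high) from the same suspensions, marked alveolar luminal cells at midgestation (AL) and marked alveolar luminal stem/progenitor cells of virgins (ALP). AL and ALP were sorted as YFP-positive cells from Wap-Cre;R26Y females of the C57BL/6 background, in which Cre driven by the milk protein promoter Wap switches on a YFP reporter for good.

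The luminal layer of the resting gland holds cells that sense hormones and cells that mostly do not. Hormone-sensing cells carry the receptors for estrogen and progesterone and signal to their neighbours through secreted factors such as Wnt4 and RANK ligand. Luminal progenitors lack most of that machinery, form colonies in culture, and are regarded as the source of the milk-secreting alveolar cells that expand in pregnancy under prolactin, Elf5 and Stat5.

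Transcript levels are the deposited intensities, a linear scale on which the median probe set read 158.4, 165.7 and 162.9 on the LP arrays and 137.2, 136.8 and 138.6 on the ML arrays. Differences are log2 of LP minus log2 of ML with their standard error (SE), and genes whose limma p, adjusted over all genes, was under 0.05 are said to have passed. Intensities of different genes come from different probes and cannot be ranked against each other. The arrays were alike within a population, with correlations across genes of 0.976 to 0.986 in LP and 0.979 to 0.983 in ML, against 0.804 to 0.869 between an LP and an ML array. The labels do not say which replicate came from which suspension, so p-values measure the spread between these samples, and the number of arrays limits the precision. The material was bulk RNA, so fewer cells of a type and less RNA per cell cannot be told apart.

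Of 12143 genes tested, 5952 passed, which is 49.0%. They split into 3314 higher in LP (27.3%) and 2638 higher in ML (21.7%), and these shares are the background for the lists of genes described here. At an unadjusted p under 0.05, 55.9% of the genes would be counted. The 3 LP and 3 ML arrays did not overlap in 66.6% of the genes, with LP higher in 35.7% and ML higher in 30.9%, so lack of overlap in a single gene is common in these data. At least 2-fold differences were found for 1488 genes higher in LP (12.3%) and 1217 higher in ML (10.0%). The split depended on scaling. LP held 55.7% of the genes that passed, 45.6% after quantile normalisation and 30.3% after centring each array on its median, which moved the median difference of all genes by -0.24. Among genes with at least 2-fold differences, LP held 55.0%, and 41.4% after centring. Lists whose median difference was small are therefore given with their counts after centring.

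The largest differences lay on the LP side. In LP, 353 genes were at least 8-fold higher and 26 at least 100-fold, whereas 144 genes were at least 8-fold higher in ML and 0 reached 100-fold. The genes with the largest differences higher in LP were Dpt, Ms4a4d, Ogn, Il6, Cd34, Mmp2, Pi16, Lum, Loxl1, Lox, Tnfaip6 and Col3a1, several of which encode collagen or proteins that bind or cross-link it. Those with the largest differences higher in ML were Spef2, Snhg11, Fxyd4, P2rx6, Ctsr, F2, Pik3c2g, Dpep3, Rtkn2, Cdcp3, Tmprss11a and Rnf207, among them a cilium protein, an ion transport regulator and a purinergic receptor. Many of these folds rest on dim readings in the lower population. With 16 added to each intensity, the difference was 257-fold for Dpt and 65.6-fold for Il6 in LP, and 17.2-fold for Spef2 and 11.1-fold for P2rx6 in ML.

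**Figure D1:**
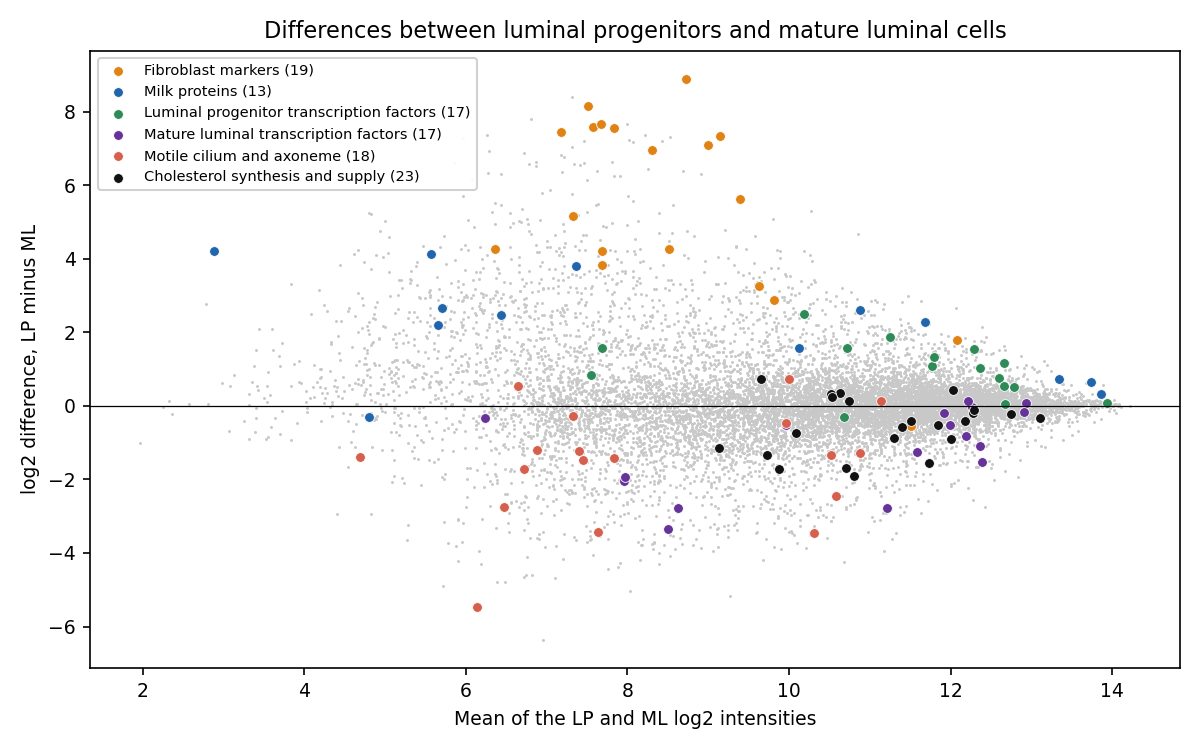
Each point is 1 of 12143 genes, with the mean of the LP and ML log2 intensities on the horizontal axis and the log2 difference LP minus ML on the vertical axis, and 6 gene lists coloured with their number of measured members. Fibroblast markers reach the largest positive differences, up to 8.89 for Dpt, milk proteins lie above 0 apart from Glycam1 at -0.31, and motile cilium genes lie mostly below 0, down to -5.47 for Spef2.

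Markers of fibroblasts, the collagen-producing cells of the stroma, separated the populations more than any luminal list. Of 19 measured, 18 passed higher in LP and 0 higher in ML, with a median difference of 5.62 against 0.04 over all genes tested. Col1a2, a chain of type I collagen, read 7221, 6314 and 4697 in LP and 40.8, 43.8 and 46.5 in ML, a 137-fold difference (log2 7.10, SE 0.31, adjusted p = 9.22e-08). Pdgfra, a receptor that defines many fibroblasts, read 3005, 2730 and 1811 in LP and 467, 275 and 290.2 in ML. Both genes stood apart between the populations on all arrays, and in both LP replicate 3 was the lowest of the LP arrays. It was so for 17 of the 18 markers that passed, against 716 of the 1488 genes at least 2-fold higher in LP. Col6a3 was the exception to the list, with 3812, 2425 and 1485 in LP and 5580, 1980 and 3953 in ML (log2 -0.56, adjusted p = 0.532).

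The mean log2 intensity of the fibroblast markers was 10.82 to 11.62 over the LP arrays, 5.52 to 6.07 over ML, 8.92 to 9.28 over MaSC, 10.49 to 11.04 over AL and 11.27 to 13.03 over ALP. Every LP array thus lay above every ML and MaSC array. Some of the genes described below are named as expressed by fibroblasts too. A gene without that remark is not thereby free of this difference. The part of the fibroblast markers in the results below was not tested. Other cell types moved less. Basal and myoepithelial markers passed higher in LP in 4 of 18, and Krt14, a basal keratin, read 535, 798 and 789 in LP, 553, 388 and 1737 in ML and 13228 on average in MaSC. Endothelial cells, leukocytes and erythroid cells carry the proteins that the lineage antibodies bind. Of the 11 endothelial markers measured, 1 passed higher in LP and 3 higher in ML, while Pecam1, Cdh5 and the other 3 that were too dim to test stayed between 5.20 and 65.7. Leukocyte markers passed in 1 of 12, Cd68, and 8 more including Ptprc were too dim, at 5.28 to 43.9. Schwann cell markers passed higher in LP in 4 of 6, among them Sox10, which luminal progenitors also express. Pericyte markers passed in 2 of 4, erythroid markers in 0 of 2, and adipocyte markers in 1 of 3 higher in LP and 2 of 3 higher in ML. After centring 1 basal marker passed higher in ML, and the other counts of these cell type lists did not move.

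**Figure D2:**
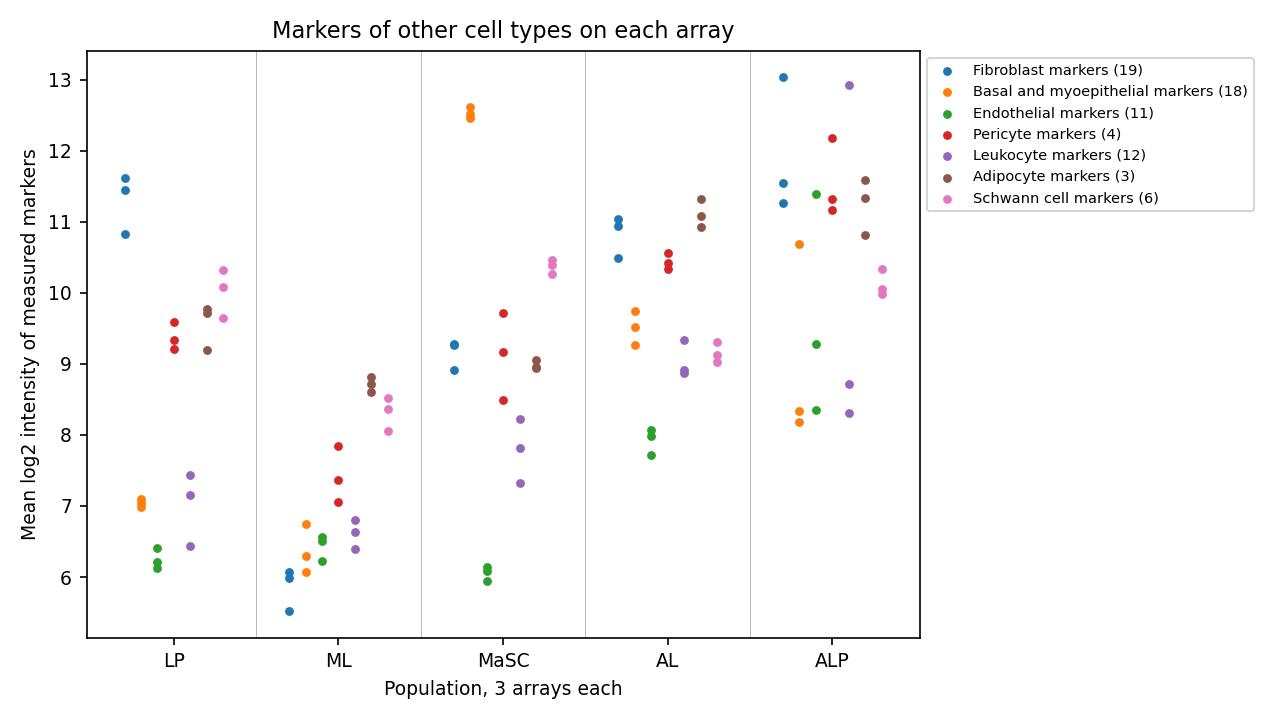
Mean log2 intensity of the measured markers of 7 cell types on the vertical axis for each array of the 5 populations on the horizontal axis, 3 points per list and population. Fibroblast markers lie at 10.82 to 11.62 in LP and 5.52 to 6.07 in ML, while endothelial and basal markers of LP and ML lie close together. Lists hold different probes, so heights are to be read within a list.

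Surface proteins used to sort mammary cells were measured as transcripts too. Of 12 measured, 6 passed higher in LP and 2 higher in ML, and after centring 5 and 3. Itgb3, which encodes CD61, the protein that separated the gates, read 3343, 3209 and 2794 in LP and 102, 95.5 and 145 in ML (log2 4.79, SE 0.22, adjusted p = 1.38e-07). Kit, the stem cell factor receptor, read 4265, 3966 and 3706 in LP against 1708, 1255 and 1783 in ML (2.54-fold, adjusted p = 0.00443). Cd14, the lipopolysaccharide co-receptor, was 2.85-fold higher in LP, Itga2, which encodes CD49b, 2.37-fold, and Cd55, a complement regulator, 3.80-fold (adjusted p = 0.000997, 0.00802 and 0.000164). Prom1, which encodes CD133 and also stands on the list of factors of hormone-sensing cells, went the other way. It read 2434, 3285 and 3888 in LP and 9426, 9662 and 8182 in ML (log2 -1.53, SE 0.42, adjusted p = 0.0111).

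Genes that mark luminal cells as a whole were bright in both. Epcam, an epithelial adhesion protein, read 14184 to 14448 in LP and 13128 to 13964 in ML (log2 0.07, adjusted p = 0.383). Keratins 8 and 18, the luminal pair, differed by log2 -0.01 for Krt8 and 0.03 for Krt18 (adjusted p = 0.884 and 0.693). Cdh1, which encodes E-cadherin, differed by 0.14 (adjusted p = 0.150), and Cd24a was 1.28-fold higher in ML (adjusted p = 0.00280). Gata3, a transcription factor of all luminal cells, read 4638, 4692 and 5315 in LP and 5142, 4599 and 5250 in ML, so the arrays overlapped (log2 -0.03, adjusted p = 0.788).

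Transcription factors linked to luminal progenitors were mostly higher in LP, with 11 of 17 measured against 1 higher in ML and a median difference of 1.04. Elf5, the ETS factor that drives alveolar fate, read 5419, 4534 and 4212 in LP and 1484, 951 and 1462 in ML (3.69-fold, log2 1.88, SE 0.52, adjusted p = 0.0110). Hey1, an effector of Notch, read 3409, 2809 and 2227 in LP and 516, 366 and 632 in ML (5.63-fold, adjusted p = 5.62e-05). Neither gene overlapped between the populations. Sox10, a factor of progenitor and neural crest cells, was 2.92-fold higher, Foxc1, a forkhead factor, 2.99-fold, and Bcl11a, a zinc finger repressor, 2.95-fold (adjusted p = 2.50e-05, 5.61e-05 and 4.59e-05). Creb5 (2.49-fold), Tfap2c (2.25-fold) and Cebpb (2.14-fold) followed. Sox9 was 1.43-fold higher in LP with an adjusted p of 0.00170, which became 0.116 after centring.

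Elf5 and Bcl11a were brighter still in the midgestation cells. Elf5 averaged 10041 in AL against 4721 in LP, and Bcl11a 2058 in AL against 358 in LP. Hey1, with 2815 in LP, was lower in AL at 1785 and higher in ALP of virgins at 5180. Over all 1488 genes at least 2-fold higher in LP, the AL mean was at or above the LP mean in 495, the ALP mean in 630 and the MaSC mean in 604. Of the 1217 genes at least 2-fold higher in ML, the AL mean reached the ML mean in 132, the ALP mean in 38 and the MaSC mean in 128. Genes of the LP set were thus often matched by another population, and genes of the ML set less often. These counts are descriptions without a test.

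Runx1, the transcription factor at the centre of the study, was the 1 member of the progenitor list that passed higher in ML. Its brightest probe set read 3127, 3443 and 3621 in LP and 4392, 5385 and 4948 in ML (1.44-fold, log2 -0.53, SE 0.13, adjusted p = 0.00686). The other 4 Runx1 probe sets differed by -0.18 to 0.25 and did not pass, so the call rests on 1 probe set, and it was lost when probe sets were averaged (log2 -0.13, adjusted p = 0.594). Among Runx factors, the partner Cbfb and corepressors, 3 of 13 passed higher in LP and 3 higher in ML, and after centring 2 and 5. Those shares before centring, 23.1% each, were near the background.

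Surface and secreted genes of progenitors showed 14 of 18 higher in LP, 2 higher in ML and a median difference of 1.15. Kcnn4, a calcium-activated potassium channel, read 8769, 10858 and 10338 in LP and 2919, 2446 and 3789 in ML (3.31-fold, adjusted p = 0.000232). Lbp, the lipopolysaccharide-binding protein, averaged 1584 in LP and 83 in ML (19.2-fold, adjusted p = 1.82e-05), and by the mean of its probe sets the difference was 7.52-fold. Cyp24a1, which breaks down vitamin D, was 14.3-fold higher (adjusted p = 0.000199), Gabrp, a GABA receptor subunit, 2.90-fold, and Tspan8, a tetraspanin, 2.09-fold. Rasgrf1, an exchange factor for Ras, went the other way, with 183, 318 and 233 in LP and 4279, 3344 and 2747 in ML (14.3-fold, adjusted p = 0.000354).

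**Figure D3:**
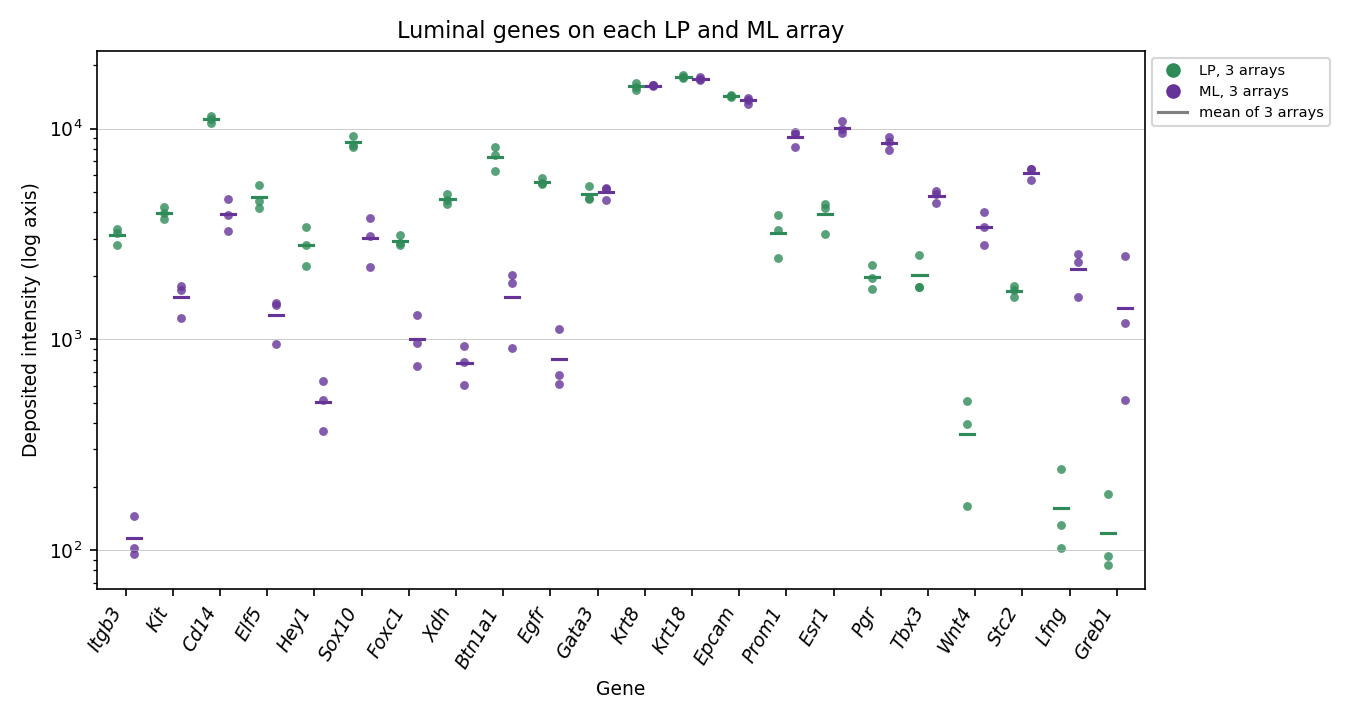
Deposited intensity on a log axis for 22 luminal genes, with 3 LP points and 3 ML points per gene and a bar at the mean of 3 arrays. From Itgb3 to Egfr the LP points lie above the ML points, from Prom1 to Greb1 below them, and Gata3, Krt8, Krt18 and Epcam are at similar height in both.

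Genes of milk proteins were already higher in LP of the virgin gland. Of 13 measured, 11 passed higher in LP and 0 higher in ML, with a median difference of 2.28. Btn1a1, butyrophilin of the milk fat globule, read 8153, 6293 and 7498 in LP and 1851, 909.7 and 2014 in ML (4.84-fold, log2 2.28, SE 0.44, adjusted p = 0.00143). Xdh, xanthine dehydrogenase of the same membrane, read 4408, 4582 and 4902 in LP and 782, 609 and 927 in ML (6.08-fold, adjusted p = 2.12e-06). Both were well above the array median in both populations and did not overlap. Mfge8, a lactadherin, was 1.67-fold higher (adjusted p = 0.000189). Csn3, kappa casein, was 1.56-fold higher by its brightest probe set, with means of 17076 and 10975, and 5.61-fold by a dimmer one.

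The caseins and whey proteins of full secretion were dim in the virgin cells. Csn1s2a, a calcium-sensitive casein, read 485, 671 and 713 in LP and 66.9, 33.0 and 38.7 in ML (13.9-fold, adjusted p = 1.63e-05), against a mean of 17017 in AL. Csn1s1, alpha-s1 casein, read 221, 160.1 and 222 in LP and 8.02, 7.5 and 24.0 in ML (17.6-fold, adjusted p = 1.30e-05, and 7.61-fold with 16 added to each intensity). Wap, whey acidic protein, averaged 111 in LP, 23.8 in ML and 6059 in AL (4.58-fold between LP and ML, adjusted p = 0.000409). Wap therefore lay below the array median in all 6 luminal arrays, and it could be tested only because it was bright in AL. Csn2, beta casein, read 37.9, 6.27 and 136 in LP and 1.46, 1.12 and 3.12 in ML, below the median throughout. It passed (18.5-fold, adjusted p = 0.00585), but with 16 added the adjusted p was 0.0897, by the mean of its probe sets the fold was 8.65, and it was 41.7 without LP replicate 2 and 8.95 without LP replicate 3. Glycam1 did not pass, with 32.2, 26.8 and 18.1 in LP and 28.7, 35.1 and 29.8 in ML (log2 -0.31, adjusted p = 0.887). In all 11 genes that passed, ML replicate 2 was the lowest ML array, and for the 1488 genes at least 2-fold higher in LP it was lowest in 936.

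Promoters of milk protein genes bind Stat5, the transcription factor that prolactin activates, at sites of the form TTCNNNGAA. The 250 bases before the start of 9 milk protein genes were matched in RefSeq, and 3 of them (33.3%) held that string, which reads the same on both strands, against 7.06% of the promoters of 9797 genes tested. The windows shown are the 3 that hold the string. Coordinates are of mouse build GRCm38.p6 with the strand of the gene, sequences run 5′ to 3′ from RefSeq, and capitals mark the string. Csn1s1 lies on chr5:87665958-87666207 (plus strand), Csn2 on chr5:87699426-87699675 (minus strand) and Glycam1 on chr15:103565082-103565331 (minus strand).
Csn1s1: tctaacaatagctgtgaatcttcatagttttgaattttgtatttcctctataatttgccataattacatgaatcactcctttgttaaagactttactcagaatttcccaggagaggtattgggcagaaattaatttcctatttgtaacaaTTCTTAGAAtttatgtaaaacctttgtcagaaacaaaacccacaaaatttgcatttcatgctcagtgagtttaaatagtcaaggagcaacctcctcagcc
Csn2: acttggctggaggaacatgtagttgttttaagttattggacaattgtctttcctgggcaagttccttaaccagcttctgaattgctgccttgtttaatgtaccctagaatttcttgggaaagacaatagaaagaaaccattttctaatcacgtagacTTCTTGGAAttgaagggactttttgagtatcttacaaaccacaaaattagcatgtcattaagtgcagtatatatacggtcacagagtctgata
Glycam1: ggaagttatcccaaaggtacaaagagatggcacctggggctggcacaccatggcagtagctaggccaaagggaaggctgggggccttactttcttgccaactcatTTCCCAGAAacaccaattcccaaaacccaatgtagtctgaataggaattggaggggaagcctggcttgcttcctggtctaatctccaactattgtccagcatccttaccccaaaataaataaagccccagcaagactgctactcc
The string began 100 bases before the start of Csn1s1, 93 before that of Csn2 and 145 before that of Glycam1. Csn1s1 and Csn2 passed and Glycam1 did not, so genes with the string in this window did not all differ between LP and ML. A match of letters is a description and not a site.

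Prolactin, JAK, STAT and SOCS genes did not share a direction, with 4 of 18 higher in LP and 6 higher in ML, or 3 and 6 after centring. Stat5a itself was lower in LP, at 4566, 4854 and 4486 against 7962, 7714 and 7755 in ML (1.69-fold, adjusted p = 0.000411), and Jak2, the kinase on the prolactin receptor, was 1.58-fold lower (adjusted p = 0.00199). Socs3, a feedback inhibitor, was 2.12-fold higher in ML. Stat6, which answers interleukins, was 1.99-fold higher in LP, Socs5 2.02-fold and Cish, a target of Stat5, 2.09-fold (adjusted p = 0.000750, 0.000207 and 0.000538).

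Hormone receptors passed in both directions, and those of estrogen and progesterone were higher in ML. Of 16 measured, 6 passed higher in ML and 4 higher in LP, a share below the 27.3% of all genes, and after centring 9 and 4. Pgr, the progesterone receptor, read 1739, 2249 and 1952 in LP and 9109, 7953 and 8667 in ML (4.35-fold, log2 -2.12, SE 0.39, adjusted p = 0.000984). By the mean of its probe sets the difference was 9.35-fold. Esr1, estrogen receptor alpha, read 3161, 4389 and 4201 in LP and 9915, 10900 and 9517 in ML (2.60-fold, adjusted p = 0.00207). Both genes kept intensities far above the array median in LP. Nr2f2, an orphan nuclear receptor, was 3.21-fold higher in ML (adjusted p = 0.0125, and 0.0505 without ML replicate 3), and Esrra, estrogen-related receptor alpha, 2.06-fold.

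Receptors of other hormones were divided. Igf1r, the receptor of insulin-like growth factor 1, read 3043, 2894 and 2698 in LP and 543, 366 and 718 in ML (5.50-fold, log2 2.46, SE 0.27, adjusted p = 4.11e-05). Insr, the insulin receptor, was 1.39-fold higher in ML (adjusted p = 0.0204, but 0.0713 without LP replicate 1 and 0.0763 without ML replicate 2). Nr3c1, the glucocorticoid receptor, was 2.56-fold higher in LP and Vdr, the vitamin D receptor, 1.88-fold (adjusted p = 5.88e-05 and 0.000103). The receptors of prolactin and androgen had no probe set of a single gene here, and Esr2 was too dim, at 10.6 to 27.0 on the 6 arrays.

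The list of factors of hormone-sensing cells had 10 of 17 genes higher in ML, 0 higher in LP and a median of -0.81. Its 10 genes include Prom1, a surface protein, and Runx1, whose call rests on 1 probe set, both described above. Greb1, an estrogen target and coactivator, read 185, 93.6 and 85.2 in LP and 2490, 1199 and 517 in ML (10.2-fold, log2 -3.34, SE 0.65, adjusted p = 0.00147). Spdef, an ETS factor of secretory epithelia, averaged 153 in LP and 1124 in ML (6.85-fold, adjusted p = 0.00219). Cited1, a coregulator of estrogen response, read 280.1, 1062 and 2547 in LP and 4259, 7747 and 7212 in ML (6.80-fold, adjusted p = 0.00615). Its LP arrays were widely spread, and the fold was 3.77 without LP replicate 1 and 11.4 without LP replicate 3. Tbx3, a T-box factor of the mammary bud, was 2.39-fold higher in ML, Creb3l4 4.12-fold and Batf 3.85-fold (adjusted p = 0.000238, 0.000216 and 0.00261). Foxa1, the pioneer factor of the estrogen receptor, read 3221, 3346 and 4406 in LP and 7700, 7255 and 7949 in ML without overlap. Its adjusted p was 0.0524 in the fit over 15 arrays and 0.00175 over the LP and ML arrays alone.

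The list of paracrine hormone effectors passed in both directions. It is wider than the factors that hormone-sensing cells secrete, and it includes Id4, which is not a secreted factor. Among 14 paracrine effectors, 4 passed higher in ML and 5 higher in LP, also after centring. Wnt4, the Wnt ligand induced by progesterone, read 161, 396 and 512 in LP and 2787, 4005 and 3412 in ML (10.5-fold, log2 -3.40, SE 0.37, adjusted p = 3.40e-05). Wnt5a was 4.42-fold higher in ML (adjusted p = 0.000336, and 8.65-fold by the mean of its probe sets). Stc2, the secreted stanniocalcin 2, read 1707, 1796 and 1584 in LP and 6397, 5692 and 6396 in ML (3.63-fold, adjusted p = 5.86e-05), whereas its relative Stc1 was 4.52-fold higher in LP (adjusted p = 0.00395). Igf1, Cxcl12 and Adamts1, also on this list and higher in LP, are expressed by fibroblasts as well. The adjusted p of Cxcl12 was 0.0133, or 0.0566 over the LP and ML arrays alone and 0.0502 without LP replicate 1, and its fold of 4.86 was 7.59 without ML replicate 1 and 2.67 without ML replicate 2. Amphiregulin, encoded by Areg, had no probe set of a single gene and was not analysed here.

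RANK ligand and its receptor lay on opposite sides. Tnfsf11, the ligand, read 12.7, 26.4 and 17.0 in LP and 43.8, 119 and 58.2 in ML, below the array median in both (3.75-fold, adjusted p = 0.00626, and 2.46-fold with 16 added). Tnfrsf11a, the receptor RANK, read 132, 115 and 83.3 in LP and 27.6, 22.6 and 40.1 in ML (3.70-fold, log2 1.89, SE 0.37, adjusted p = 0.00150, and 2.73-fold with 16 added), also below the array median on all 6 arrays. The LP and ML arrays overlapped for neither gene. Of 16 genes of RANK and NF-kB signalling, 6 passed higher in LP and 3 higher in ML, and after centring 2 and 4. Rela, a subunit of NF-kB, differed by 0.28 (adjusted p = 0.00888), and after centring its adjusted p was 0.790.

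In the Wnt pathway, 14 of 33 genes passed higher in LP and 6 higher in ML, and after centring 11 and 6. The ML side held ligands and a receptor. Besides Wnt4 and Wnt5a, Fzd4, a frizzled receptor, read 648, 789.7 and 1113 in LP and 2843, 2807 and 2925 in ML (3.45-fold, adjusted p = 0.00102). On the LP side, Lgr6, a receptor for R-spondins, read 4759, 4139 and 4425 in LP and 762, 514 and 1048 in ML (5.97-fold, log2 2.58, SE 0.23, adjusted p = 1.09e-05). Wnt5b was 7.02-fold higher in LP (adjusted p = 4.40e-06), Lgr4, the related receptor, 1.93-fold, the repressor Tcf7l1 2.55-fold and the secreted inhibitor Sfrp1 4.40-fold. Wnt5a and Wnt5b, which are close relatives, thus lay on opposite sides. Axin2, a common readout of canonical signalling, read 44.0, 104 and 47.7 in LP and 21.7, 35.9 and 31.0 in ML and did not pass (adjusted p = 0.125).

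Notch pathway genes passed higher in LP in 11 of 21 and higher in ML in 4. Notch signalling passes between touching cells and favours luminal fate. The targets Hey1, Hey2 and Heyl were all higher in LP. Hey2 read 747, 929 and 682 in LP and 49.0, 52.9 and 158 in ML (10.5-fold, log2 3.39, SE 0.40, adjusted p = 6.23e-05), and Heyl was 7.64-fold higher (adjusted p = 0.000470). Hes1, another target, did not pass (log2 -0.44, adjusted p = 0.179, and 0.0334 after centring), and Hes6, an inhibitor of Hes1, was 3.74-fold higher in ML. Among receptors, Notch1 was 1.54-fold higher in LP (adjusted p = 0.000902). Ligands were split, with Dll1 4.86-fold higher in LP and Jag1 3.28-fold higher in ML (adjusted p = 0.00327 and 0.000295), which was 2.07-fold by the mean of the Jag1 probe sets. The largest difference was that of Lfng, a sugar transferase that tunes which ligand a receptor answers. It read 102, 241 and 132 in LP and 2537, 2326 and 1592 in ML (14.3-fold, log2 -3.83, SE 0.60, adjusted p = 0.000382). Centring moved the counts to 7 higher in LP and 6 higher in ML.

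ErbB receptors and ligands were on the LP side, with 9 of 14 higher in LP and 2 higher in ML. Egfr, the receptor of epidermal growth factor, read 5433, 5833 and 5535 in LP and 674, 611 and 1121 in ML (7.24-fold, log2 2.86, SE 0.22, adjusted p = 4.36e-06). Erbb2 and Erbb3 did not pass (log2 -0.04 and -0.42, adjusted p = 0.873 and 0.277). Erbb3 passed in the LP and ML arrays alone, with an adjusted p of 0.00384. Of the ligands, Ereg, epiregulin, was 6.04-fold and Hbegf 2.36-fold higher in LP, while Epgn, epigen, read 801, 1088 and 1294 in LP and 3456, 3502 and 3386 in ML (3.31-fold, adjusted p = 0.000129). Lrig1 and Lrig3, which restrain these receptors, were 2.36-fold and 5.94-fold higher in LP (adjusted p = 7.21e-05 and 2.52e-06).

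Genes of ciliated cells were the list with the largest share on the ML side. Of 18 motile cilium and axoneme genes measured, 13 passed higher in ML and 1 higher in LP, with a median difference of -1.35. A gene could enter the test through its 3 ML arrays alone, so this share favours genes high in ML. Dnaic1, an intermediate chain of the dynein arms, read 178, 502 and 630.2 in LP and 3752, 5182 and 3812 in ML (11-fold, log2 -3.45, SE 0.76, adjusted p = 0.00305). Cfap126, a protein of the ciliary base, read 464, 789 and 768 in LP and 3035, 4035 and 3786 in ML (5.49-fold, adjusted p = 4.30e-05). Dynlrb2, a dynein light chain, was 10.8-fold higher and the radial spoke genes Rsph4a and Rsph9 6.77-fold and 2.51-fold (adjusted p = 0.000676 for Dynlrb2 and 3.88e-05 for Rsph4a). Spef2, of the central pair, read 4.05, 12.7 and 23.1 in LP and 629.7, 284 and 577 in ML (44.3-fold, and 27.4-fold without LP replicate 1 or 17.2-fold with 16 added). None of these genes overlapped between the populations.

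Defining genes of motile ciliogenesis were weak. Foxj1, the master factor of motile cilia, read 25.7, 12.7 and 12.6 in LP and 29.9, 63.6 and 38.1 in ML, below the array median throughout. Its adjusted p of 0.0444 rose to 0.126 without LP replicate 2, 0.127 without LP replicate 3, 0.155 without ML replicate 2 and 0.0742 without ML replicate 3. Of the 29 genes listed, 9 were too dim to test and stayed between 2.71 and 136. Of these, Dnali1 and the dynein heavy chain Dnah5 averaged higher in ML. Dnah2, Dnaic2, Spag6, Spag16, Spag17, Hydin and the tubule protein Tekt1 averaged higher in LP. Ccdc39 was the 1 gene higher in LP (1.65-fold, adjusted p = 0.000907), although its partner Ccdc40 was higher in ML. The AL means were 18.6 for Dnaic1, 17.4 for Rsph4a and 6.10 for Spef2, below the LP means.

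**Figure D4:**
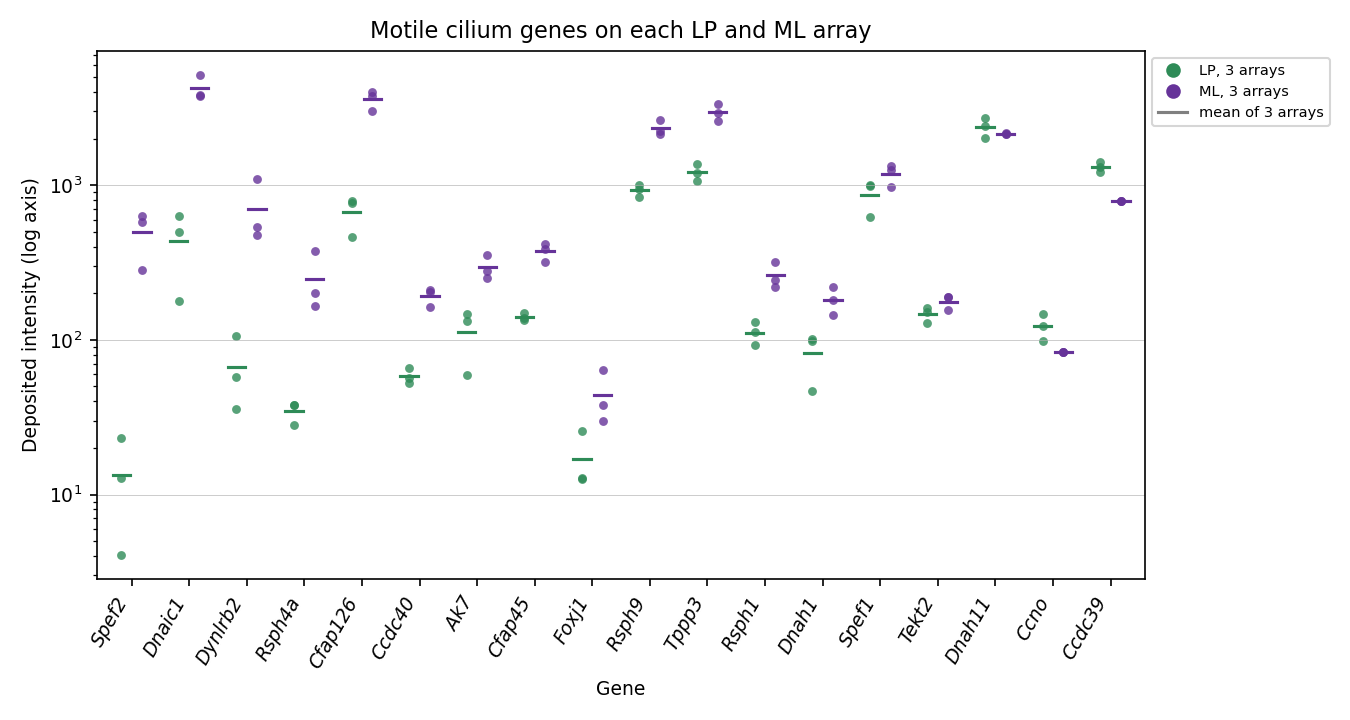
Deposited intensity on a log axis for the 18 measured motile cilium genes ordered by their log2 difference, with 3 LP points and 3 ML points per gene and a bar at the mean of 3 arrays. Along the order from Spef2 to Dnah1 the ML points lie above the LP points, Foxj1 lies lowest among the ML means, and Ccdc39 at the right lies higher in LP.

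The primary cilium, which most cells carry for signalling, showed smaller differences of the same sign. Of 29 genes, 13 passed higher in ML and 3 higher in LP, with a median of -0.34, or -0.58 after centring with 22 higher in ML. Ift172, a transport protein along the ciliary shaft, read 408, 667 and 765 in LP and 1397, 1455 and 1366 in ML (2.37-fold, adjusted p = 0.00329). Ift46 was 2.33-fold higher in ML, Rfx2, a factor of ciliary genes, 2.49-fold and Ift88 1.72-fold (adjusted p = 0.000570, 0.000190 and 0.00429). Bbs7, a subunit of the BBSome coat, was 3.61-fold higher in LP (adjusted p = 0.000125).

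Genes of defence against microbes passed more often on the LP side. Of 20 innate defence genes, 10 passed higher in LP and 2 higher in ML, with a median of 1.43. Chil1, a chitinase-like protein, read 7893, 8460 and 7574 in LP and 963, 806 and 1318 in ML (7.91-fold, log2 2.98, SE 0.19, adjusted p = 1.30e-06). S100a8, a subunit of calprotectin, was 9.17-fold higher in LP. Its partner S100a9 was too dim to test, at 14.2, 14.5 and 40.4 in LP and 697, 13.0 and 7.49 in ML. Slpi, a protease inhibitor, was 3.27-fold higher in LP, and the receptors Tlr2 and Tlr5 for bacterial lipoprotein and flagellin 2.65-fold and 3.22-fold. The exceptions were antimicrobial peptides. Reg3g read 199, 219.8 and 744 in LP and 3504, 2951 and 4519 in ML (11.3-fold, adjusted p = 0.00138, and 17.2-fold without LP replicate 3), and Defb1, a beta defensin, 488, 1566 and 1406 against 5427, 8474 and 6941 (6.67-fold, adjusted p = 0.00697). Ltf, lactoferrin, was bright in both and did not pass (log2 0.20, adjusted p = 0.700), and Lcn2, a binder of bacterial siderophores, was 1.54-fold higher in LP.

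Among 26 chemokines and cytokines, 13 passed higher in LP and 2 higher in ML. Lif, a cytokine that acts through Stat3, read 8130, 8179 and 7774 in LP and 3455, 2325 and 3497 in ML (2.64-fold, adjusted p = 0.000357). Csf1 and Csf3, growth factors of macrophages and granulocytes, were 3.36-fold and 3.15-fold higher (adjusted p = 1.55e-05 and 0.000538). The largest differences were those of Il6 (223-fold) and Ccl2 (94.6-fold, or 49.8-fold with 16 added), which fibroblasts also make. Ccl2 read 3057, 1689 and 886 in LP and 16.2, 14.9 and 22.4 in ML, with LP replicate 3 lowest as for the fibroblast markers. LP replicate 3 was the lowest LP array for 9 of the 13, against 716 of the 1488 genes at least 2-fold higher in LP. Cxcl15, a chemokine for neutrophils, was 4.70-fold higher in ML, with 1826, 2230 and 2618 in LP and 10822, 10491 and 9721 in ML (adjusted p = 0.00191).

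The interferon list held changes in both directions, with 4 of 24 higher in LP and 6 higher in ML, or 14 higher in ML after centring. Ifit1, Ifit2, Ifit3 and Gbp3, which interferon induces, were the 4 higher in LP. Ifit3 read 901, 689 and 304 in LP and 58.3, 61.0 and 66.5 in ML (9.28-fold, adjusted p = 0.00458). Gbp3 lost its call without LP replicate 1, LP replicate 2 or ML replicate 1 (adjusted p = 0.0515, 0.0659 and 0.0626 in limma). The 6 higher in ML were Stat2, Irf1 and genes that make and carry peptides for class I molecules, among them Psmb9, an immunoproteasome subunit (3.34-fold), and Tap2, a peptide transporter (2.86-fold, adjusted p = 0.000379). In all 4 genes on the LP side LP replicate 3 was the lowest LP array, and in all 6 on the ML side LP replicate 1 was. Among genes with at least 2-fold differences this order was common too, in 716 of 1488 higher in LP and 739 of 1217 higher in ML.

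Among lipid genes, those of cholesterol leaned to ML and those of fatty acids passed in both directions. Cholesterol synthesis and supply passed higher in ML in 13 of 23 and higher in LP in 1, Mvk, whose adjusted p of 0.0200 was 0.0917 after centring and 0.0503, 0.0633 and 0.0879 without LP replicate 1, LP replicate 3 and ML replicate 2, with a median of -0.42. Fdft1, squalene synthase, read 1764, 2198 and 1999 in LP and 5557, 5472 and 6583 in ML (2.96-fold, log2 -1.56, SE 0.16, adjusted p = 2.67e-05). Fdps was 3.20-fold, Tm7sf2 3.29-fold and Lss 2.53-fold higher in ML, enzymes from farnesyl diphosphate to lanosterol and beyond. Abcg1, a sterol exporter, was 3.79-fold higher (adjusted p = 0.00166). Hmgcs1, near the start of the pathway, differed by -0.33 (adjusted p = 0.0134, and 0.0566 without ML replicate 3).

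Genes of fatty acid and milk fat synthesis passed higher in LP in 11 of 28 and higher in ML in 8, and after centring in 8 and 12. Desaturases of long chains lay in LP. Fads2 read 6786, 5981 and 6271 in LP and 1510, 1320 and 2305 in ML (3.81-fold, adjusted p = 1.01e-05), and Fads1 was 6.60-fold higher (4.03-fold by the mean of its probe sets). Lipid uptake and droplet genes were higher in LP too, with Vldlr, a lipoprotein receptor, 8.42-fold, Fabp5, a fatty acid carrier, 4.44-fold, Cidea 4.52-fold and Plin2, a droplet coat protein, 2.56-fold. On the ML side were Dgat2, which makes triglyceride, at 1174, 1576 and 2433 in LP and 7403, 7616 and 9127 in ML (4.85-fold, adjusted p = 6.13e-05, and 7.37-fold by the mean of its probe sets), and the desaturase Scd2 (3.59-fold). The carrier Fabp4, 20.0-fold higher in LP, is a gene of adipocytes and endothelium. Lpl, lipoprotein lipase, read 6696 in ML replicate 1 against 27.9 and 41.0 in the other ML arrays and did not pass (adjusted p = 0.0876, and 0.00141 without ML replicate 1).

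**Figure D5:**
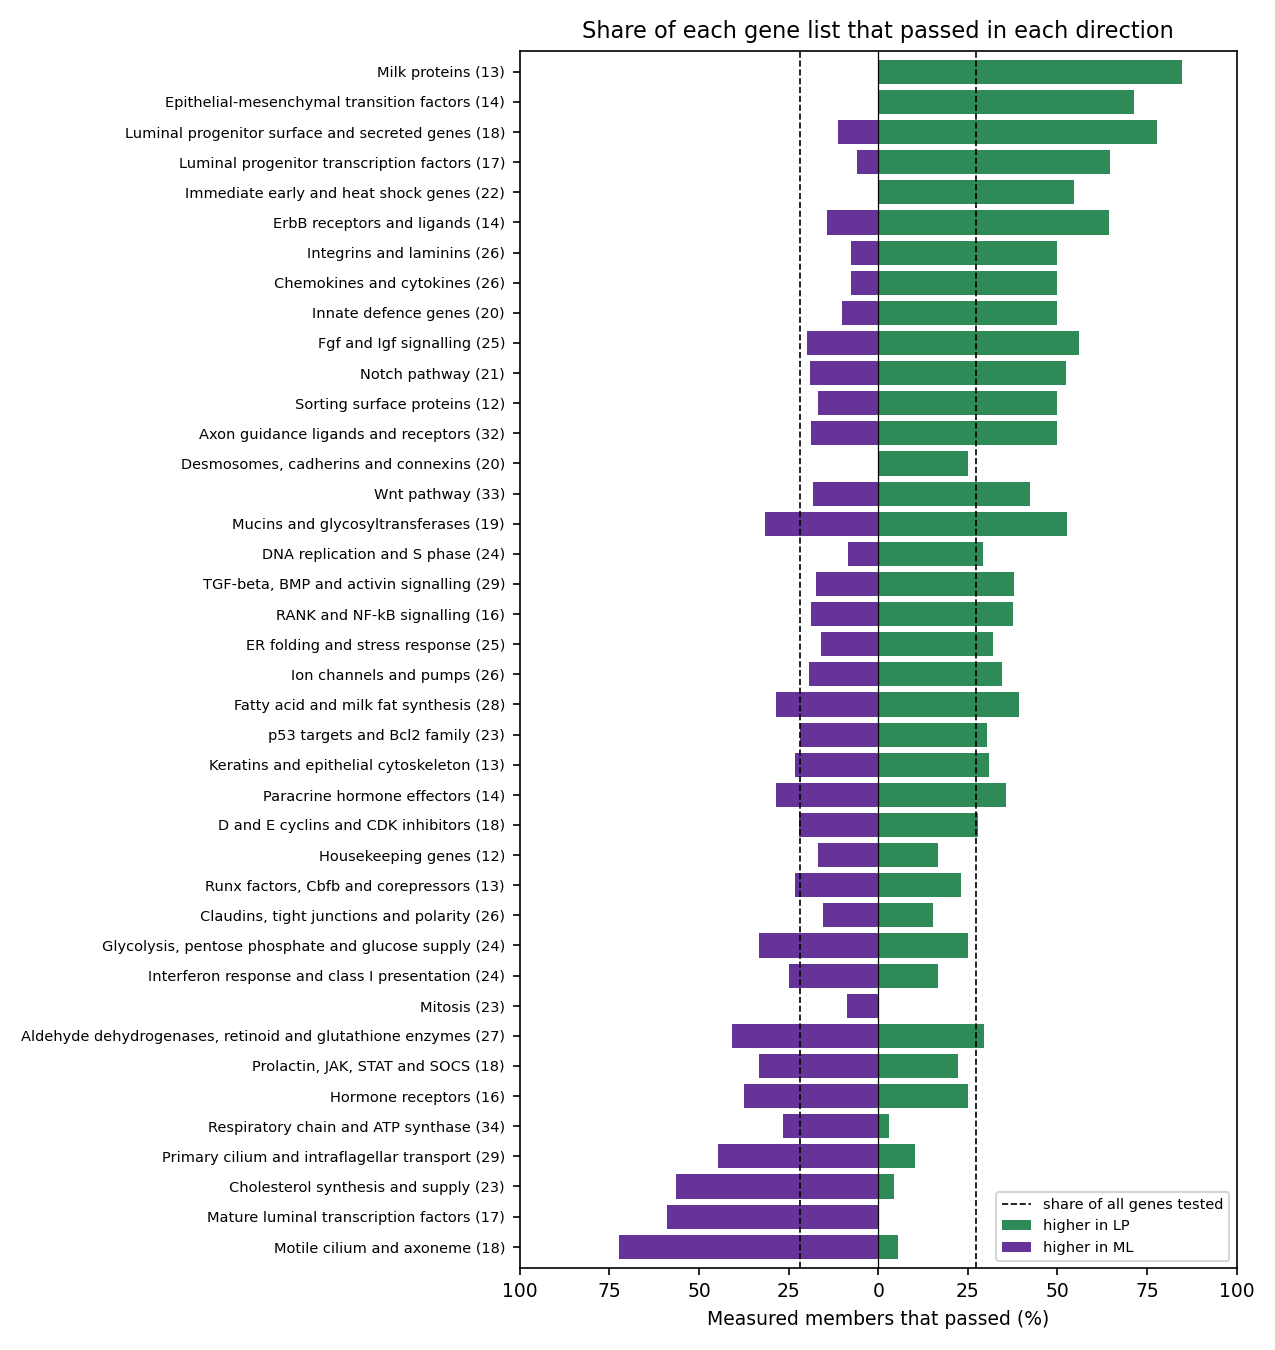
Horizontal bars give the percentage of measured members of each of 40 gene lists that passed higher in LP (right, green) and higher in ML (left, purple), with the number measured in parentheses and dashed lines at 27.3% and 21.7%, the shares of all genes tested. Milk proteins (84.6% higher in LP) stand at the top and motile cilium genes (72.2% higher in ML) at the bottom. Lists are ordered by the share higher in LP less the share higher in ML, and only some of those between lie near the dashed lines.

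Ion channels and pumps passed at shares near the background, with 9 of 26 higher in LP (34.6%) and 5 higher in ML (19.2%), and after centring 7 and 8. In ML the regulators of the sodium pump Fxyd2 and Fxyd4 were high. Fxyd2 read 337, 1322 and 772 in LP and 7645, 8920 and 9663 in ML (12.4-fold, log2 -3.63, SE 0.55, adjusted p = 0.000299), and Fxyd4 was 33.0-fold higher (adjusted p = 0.00261). Scnn1a, a subunit of the epithelial sodium channel, was 4.47-fold and Atp2c2, a calcium pump of the Golgi, 4.79-fold higher in ML. In LP the potassium channels Kcnq1 (6.97-fold), Kcnn4 and Kcne3 (3.19-fold) and the plasma membrane calcium pump Atp2b1 (2.29-fold) were higher. Aqp1, a water channel also found in endothelium and stroma, was 30.2-fold higher in LP.

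Most junction genes did not pass, with 4 of 26 claudin, tight junction and polarity genes higher in each population, and after centring 3 in LP and 5 in ML. Cldn3 and Cldn7 did not pass (adjusted p = 0.928 and 0.442). Cldn1 read 7515, 7913 and 7831 in LP and 1587, 1765 and 3196 in ML (3.73-fold, adjusted p = 9.75e-05, and 6.60-fold by the mean of its probe sets), and Cldn10 read 607, 866 and 1718 in LP and 4980, 5278 and 5679 in ML (5.49-fold, adjusted p = 0.00595). Of 20 desmosome, cadherin and connexin genes, 5 were higher in LP and 0 in ML, and after centring 3 and 5. Gjb2, connexin 26, read 4897, 5047 and 4858 in LP and 719, 628 and 1242 in ML (5.98-fold, adjusted p = 2.85e-05), and averaged 9673 in AL.

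The keratin and cytoskeleton list passed at shares near the background, with 4 of 13 genes higher in LP (30.8%) and 3 higher in ML (23.1%). After centring the counts were 3 and 5. Keratins other than the luminal pair went in both directions. Krt6a, a keratin of activated epithelia, read 575, 719 and 1519 in LP and 6589, 5887 and 6992 in ML (7.56-fold, log2 -2.92, SE 0.41, adjusted p = 0.000174). Krt15 was 4.23-fold higher in ML, while Krt23 (2.88-fold) and Krt17 (3.68-fold) were higher in LP (adjusted p = 9.46e-05, 0.00338 and 0.00846). Krt17 averaged 11730 in MaSC.

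Mucins and their sugar transferases passed higher in LP in 10 of 19 and higher in ML in 6, and after centring in 7 and 8. Muc1, the mucin of the apical membrane, read 6071, 6561 and 7088 in LP and 1976, 2405 and 3032 in ML (2.70-fold, adjusted p = 0.000189). Muc4 (7.96-fold), Muc20 (8.12-fold) and Muc15 (2.82-fold) were higher in LP too. Gcnt1, which branches the sugar chains, was 6.68-fold higher in ML (adjusted p = 0.000821), and so was Muc13, a membrane mucin outside the list, at 6474, 3439 and 4140 in ML against 435, 252 and 274 in LP (14.5-fold, adjusted p = 0.00109).

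Enzymes of aldehydes, retinoids and glutathione were divided by family, with 8 of 27 higher in LP and 11 higher in ML, and after centring 6 and 13. Aldehyde dehydrogenase activity is a common assay for progenitors. Aldh1a1 read 1672, 1237 and 724 in LP and 65.5, 40.6 and 225 in ML (13.6-fold, adjusted p = 0.000585, and 22.2-fold without ML replicate 3). LP replicate 3 was its lowest LP array, as in 17 of 18 fibroblast markers and 716 of the 1488 genes at least 2-fold higher in LP. Aldh1a3 was 1.87-fold higher in LP with an adjusted p of 0.0213 and means of 11806 and 6324. Leaving out single arrays took its adjusted p to 0.0525 (LP replicate 1), 0.0576 (LP replicate 2), 0.0529 (ML replicate 1) and 0.0685 (ML replicate 2), and centring to 0.0811, while both dimmer probe sets differed by 5.44-fold and 5.03-fold. Members of the third family were higher in ML. Aldh3a2 read 2377, 3104 and 3279 in LP and 9200, 9317 and 8664 in ML (3.13-fold, adjusted p = 0.000136), and Aldh3b1 was 4.96-fold higher. Gsta4, a glutathione transferase, was 7.46-fold higher in ML, and Nqo1, a quinone reductase, 4.10-fold higher in LP (adjusted p = 0.000208 and 0.000103). Crabp2, which carries retinoic acid to its receptor, was 3.60-fold higher in LP (adjusted p = 1.10e-05).

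Growth factor pathways were more often on the LP side, with 14 of 25 Fgf and Igf genes higher in LP and 5 higher in ML. Fgfr1 was 1.91-fold higher in LP and Fgfr2, the receptor needed for ductal branching, 2.11-fold higher in ML (adjusted p = 7.16e-05 and 0.000231), and by the mean of its probe sets 5.42-fold. Fgfr2 read 4074, 6055 and 6557 in LP and 10711, 11770 and 12023 in ML. Fgf13, a member that acts inside cells, was higher in ML (log2 -3.33, SE 0.42). Spry2, an inhibitor that Fgf signalling induces, was 2.65-fold higher in LP, and Irs2, an adaptor of the Igf receptor, 2.61-fold. Igf-binding proteins were all on the LP side where they passed, from 2.33-fold for Igfbp5 (4.16-fold by the mean of its probe sets) to 86.8-fold for Igfbp6. Igfbp6 read 3795, 3129 and 1967 in LP and 40.4, 22.9 and 38.5 in ML, and fibroblasts also make it.

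TGF-beta, BMP and activin genes passed higher in LP in 11 of 29 and higher in ML in 5, and after centring in 8 and 9. The ligands diverged. Tgfb2 read 5707, 6125 and 6277 in LP and 1218, 961 and 2218 in ML (4.39-fold, adjusted p = 5.43e-05), whereas Tgfb1 read 183, 229.6 and 266 in LP and 1503, 1249 and 1018 in ML (5.55-fold, adjusted p = 0.000637). Both were free of overlap. Among receptors, Tgfbr3 was 5.29-fold higher in LP and Bmpr1b 12.3-fold higher in ML (adjusted p = 5.43e-05 and 0.00153). Id3, a target of BMP, was 3.35-fold higher in ML and its relative Id2 2.43-fold higher in LP.

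Few mitosis genes passed. Of 23 mitosis genes, 0 passed higher in LP and 2 higher in ML, and after centring 0 and 3. Mki67 read 265, 447 and 469.7 in LP and 329, 107 and 459.8 in ML, with overlap (log2 0.59, adjusted p = 0.628), against a mean of 5026 in AL. The 2 were Aurka, a spindle kinase, at 168, 247 and 364 in LP and 1352, 2252 and 1901 in ML (7.26-fold, log2 -2.86, SE 0.44, adjusted p = 0.000304), and Kif20a, a kinesin of cell division. Kif20a read 78.2, 82.9 and 109 in LP and 179, 146 and 256 in ML (2.12-fold, adjusted p = 0.0318, but 0.0903, 0.0821, 0.0627 and 0.113 without LP replicate 1, LP replicate 2, ML replicate 1 and ML replicate 3). Replication genes passed higher in LP in 7 of 24 and higher in ML in 2, and after centring in 5 and 5. Pola1, a polymerase subunit, was 3.26-fold and Cdt1, a licensing factor, 2.40-fold higher in LP, and Mcm6 was 1.55-fold higher in ML (adjusted p = 0.00627). Cdk6 was 3.51-fold and Rb1, the retinoblastoma gene, 2.02-fold higher in LP (adjusted p = 7.69e-05 and 0.00159).

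Survival genes held 1 of the clearest differences. Bcl2, an inhibitor of cell death, read 2683, 2388 and 2065 in LP and 204, 136 and 289 in ML (11.8-fold, log2 3.56, SE 0.23, adjusted p = 1.21e-06). Bmf, an activator of cell death, read 168, 457 and 176 in LP and 1880, 1891 and 1389 in ML (7.16-fold, adjusted p = 0.00387, and 2.75-fold by the mean of its probe sets). The stress-induced sestrins lay apart, with Sesn2 4.89-fold higher in LP and Sesn1 3.06-fold higher in ML (adjusted p = 3.69e-05 and 0.000581). Over the whole list of p53 targets and the Bcl2 family, 7 of 23 passed higher in LP (30.4%) and 5 higher in ML (21.7%). These shares were near the background, and after centring the counts were 5 and 9.

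Genes of energy metabolism mostly differed by small amounts. In the respiratory chain, 9 of 34 genes passed higher in ML and 1, Cycs, higher in LP. The median was -0.19, and centring moved the count higher in ML to 32, so this count depended on the scaling, and Cycs lost its call (adjusted p = 0.598). In glycolysis, 6 of 24 passed higher in LP and 8 higher in ML, and after centring 4 and 10. Ldhb, a lactate dehydrogenase subunit, was the clear difference, at 3969, 4366 and 4120 in LP and 447, 283 and 470.2 in ML (10.6-fold, log2 3.41, SE 0.18, adjusted p = 5.03e-07). Among phosphofructokinases, Pfkp was 3.61-fold higher in LP and Pfkm 2.26-fold higher in ML (adjusted p = 1.12e-05 and 0.00479). In the endoplasmic reticulum list, 8 of 25 passed higher in LP and 4 higher in ML, or 3 and 6 after centring, with Chac1 (3.96-fold), Trib3 (2.64-fold) and Herpud1 (2.48-fold) leading in LP.

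Genes that other work ties to mesenchymal change moved with the fibroblast markers. Of 14 factors of epithelial-mesenchymal transition, 10 passed higher in LP and 0 higher in ML, with a median of 4.21. Vim, vimentin, read 11026, 9676 and 7613 in LP and 426, 212 and 535 in ML (25.6-fold, adjusted p = 8.11e-07). Zeb1 averaged 729 in LP and 32.5 in ML (21.4-fold, adjusted p = 6.27e-05), and Prrx1, a factor of limb and stromal mesenchyme, 1235 and 12.5 (98.7-fold, or 41.7-fold with 16 added). LP replicate 3 was the lowest LP array in 9 of the 10, as in 17 of 18 fibroblast markers and 716 of the 1488 genes at least 2-fold higher in LP. Snai2 and Trp63, the factors of basal cells, did not pass (adjusted p = 0.209 and 0.193). The part of the fibroblast markers in these values was not tested.

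Integrins and laminins passed higher in LP in 13 of 26 and higher in ML in 2. Itgb8, which activates TGF-beta, read 3837, 4433 and 3366 in LP and 571, 344 and 701 in ML (7.46-fold, adjusted p = 4.66e-05), and Itga8 was 8.91-fold higher. The basement membrane genes Lama4 and Nid1, which stromal cells also express, were 19.1-fold and 10.3-fold higher. LP replicate 3 was the lowest LP array for 9 of these 13 genes. Guidance molecules first described in axons passed higher in LP in 16 of 32 and higher in ML in 6. Efna5, an ephrin, read 4925, 5030 and 4314 in LP and 1216, 1036 and 1537 in ML (3.81-fold, adjusted p = 2.56e-06), its receptor Epha4 was 7.43-fold higher in LP, and Robo1, a receptor of Slit proteins, 3.67-fold higher in ML (adjusted p = 0.000107 and 0.000761).

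Large differences also held among genes whose mean log2 lay above the array median in both populations. A single array could still read below its median, as LP replicate 3 did for Tph1 (119.6 against 162.9). Ncam1, a neural adhesion molecule, read 5452, 5329 and 4497 in LP and 329, 234 and 335 in ML (17.2-fold, log2 4.10, SE 0.16, adjusted p = 4.95e-08, and 8.84-fold by the mean of its probe sets). Ackr3, a scavenging receptor for Cxcl12, was 24.7-fold and Serping1, the inhibitor of complement C1, 34.0-fold higher in LP. Fibroblasts also express both, and fibroblast markers differed as given above. Higher in ML were Tph1, the first enzyme of serotonin synthesis, at 852, 537 and 119.6 in LP and 11579, 6915 and 4573 in ML (18.8-fold, adjusted p = 0.00800, and 10.6-fold without LP replicate 3), Acsbg1, an acyl-CoA synthetase (18.3-fold), and Folr2, a folate receptor, at 185, 289.7 and 287 in LP and 3864, 3875 and 3311 in ML (14.8-fold, adjusted p = 0.00131). Of the 1488 genes at least 2-fold higher in LP, ML was above the median in 780 and at or below it in 708. For the 1217 genes higher in ML, LP was above it in 855 and at or below it in 362.

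Immediate early and heat shock genes, which respond to handling of cells, passed on the LP side only, with a small median difference. Of 22 measured, 12 passed higher in LP (54.5%, against 27.3% of all genes tested) and 0 higher in ML, with a median of 0.32. After centring the counts were 5 and 2. Fos and Jun did not pass (log2 -0.13 and 0.03, adjusted p = 0.480 and 0.831), although Fos had an adjusted p of 0.0335 after centring, whereas Egr2 read 4010, 4766 and 4107 in LP and 733, 981 and 1771 in ML (3.95-fold, adjusted p = 0.000247). Housekeeping genes had a median of 0.01, with 2 of 12 passing in each direction, and after centring 1 higher in LP and 5 higher in ML. Rpl13a, a ribosomal protein, differed by -0.01 (adjusted p = 0.932, and 0.0418 after centring) and Actb by 0.05 (adjusted p = 0.504).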

How the data were processed

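Mouse whole-genome Affymetrix arrays were hybridised with RNA amplified by the NuGEN Ovation system. The deposited values are linear intensities that the authors normalised with dChip, and the sources used here do not name its version, model or baseline array. All 15 arrays were used, with groups taken from the titles. Intensities were floored at 1, which touched 1178 LP and ML values, and log2 was taken. Of 45101 probe sets, 34945 named a single gene by the platform annotation. A probe set was kept if it lay above its array median in at least 3 of 15 arrays, and each gene was read from its brightest such probe set by mean log2, which left 12143 of 18193 genes. A gene bright in a single population could therefore be tested. The LP and ML populations were compared in limma 3.58.1 (R 4.3.3) with lmFit and eBayes over 15 arrays, 1 mean per population, two-sided, with Benjamini-Hochberg adjustment over all genes tested. The script was tested on simulated data.

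The gene lists and members were chosen with earlier results of these data known. Genes named in the text are the 12 with the largest non-overlapping differences in each direction, the 12 among genes bright in both populations, and the leading members of each list, and further list members were named after their values were seen. The settings tried were the LP and ML arrays alone, the replicate number as a block, 16 added to each intensity, quantile normalisation, centring on array medians, other filters, other handling of probe sets, trended and robust variance, and leaving out each array. No depth exists for arrays.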

Additional observations from a re-analysis of the deposited data

How the results depend on the processing

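The number of genes that passed, 5952, was 5529 to 6599 under the settings that kept 1 value per gene and every LP and ML array, and with each probe set tested on its own it was 10599 of 22143, of which 6264 were higher in LP, 4335 higher in ML and 4837 at least 2-fold different, since more rows were tested. Centring each array on its median gave 1874 genes higher in LP and 4302 higher in ML, against 3314 and 2638, because it moved the median difference of all genes by -0.24. Leaving out 1 array at a time gave 4877 to 5348 genes, with 2468 to 2727 at least 2-fold different against 2705. The replicate numbers of LP and ML do not pair the samples by the labels, and the correlations of their deviations were 0.048, 0.066 and 0.063 for equal numbers and -0.081 to 0.02 for others, with every LP array correlating best with its own number, a hint from the data only. With the replicate number as a block 5707 genes passed, or 5529 in the fit of the LP and ML arrays alone. Of the 259 genes named, 0 reversed under the settings that kept 1 value per gene. Centring ended the call of 5 and added 4, the block in the LP and ML arrays alone ended 6 and added 4, and leaving out 1 array ended 3 to 6 and added at most 1. The fit of each probe set on its own was not part of these counts. Of 915 genes listed or picked for naming, 453 had more than 1 probe set, and for 4 these passed in opposite directions. The cause was not tested where a call was lost. Probe sets near background limit the folds of dim genes, as the values with 16 added show.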

Other observations

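Short promoter strings were counted in the 250 bases before the start of RefSeq genes on mouse build GRCm38.p6, on both strands, for 1096 genes at least 2-fold higher in LP, 942 at least 2-fold higher in ML and 9797 genes tested, with no test. The RUNX string TGTGGT was in 13.2%, 14.1% and 12.6% of them in that order. The ETS string CAGGAAG was in 12.7%, 14.9% and 12%, and the GATA string AGATAA in 7.57%, 8.39% and 6.96%. The sterol string TCACNCCAC was in 0.639%, 1.59% and 1.18%, and the RFX string GTTGCCA in 3.28%, 4.88% and 3.83%. The forkhead string TGTTTAC was in 3.19%, 2.87% and 2.69%, and the STAT string TTCNNNGAA in 7.39%, 8.60% and 7.06%. The estrogen response element was in 0 of the first 2 sets and in 0.0102% of all genes tested. Motifs differ in length, so shares are to be read within a motif, and the absence of a string from this window says nothing about the factor.

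Cyclins and their inhibitors passed higher in LP in 5 of 18 (27.8%) and higher in ML in 4 (22.2%), with a median difference of 0.10. These shares were near the background, and after centring the counts were 4 and 5.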
